A study of Homo sapiens with 4 samples.

Results

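The mitotic entry, spindle and checkpoint genes are a hand-written list of 54 genes, from the cyclins and kinases that start mitosis to the motors, kinetochore proteins and proteases that carry it through. They were found by symbol among the 61541 gene rows of an RNA-seq table of MHCC97H cells, an established human hepatocellular carcinoma (HCC) cell line. The list was chosen by name and function, not by a cut on measured values, though with earlier results of these data known. All 54 genes passed the filter on low counts, among 16863 genes tested. The table holds 4 libraries in 2 groups. The control group (shCon) has 2 libraries from MHCC97H cells that carry a control shRNA, which the study's methods call shRFP. The knockdown group (shUBXN1) has 2 libraries from MHCC97H cells in which UBXN1, a cofactor of the p97/VCP segregase, was knocked down by an shRNA. Both groups share the cell line and, by the methods, delivery of the shRNA with a pLKO.1 lentivirus. The shRNA used for the sequenced cells is not given in the sources used here, and neither label nor methods say that the libraries of a group came from separate cultures, so the p-values measure the spread between these libraries, which may be technical.

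Entry into mitosis is driven by CDK1 bound to cyclin B. WEE1 and PKMYT1 hold this kinase inactive by phosphorylating CDK1, and the CDC25 phosphatases remove those phosphates. After the nuclear envelope breaks down, kinesins and their partners build the bipolar spindle, and kinetochores link each chromosome to it. Unattached kinetochores keep the spindle assembly checkpoint on, which blocks CDC20 and the anaphase-promoting complex (APC/C), a ubiquitin ligase, until every chromosome is attached. Degradation of securin and cyclin B then lets the chromatids part and the cell leave mitosis. Most of these genes are transcribed periodically, with a peak in G2 and M phase. Their promoters are known for the cell cycle genes homology region (CHR), bound by complexes on the MuvB core together with B-MYB and FOXM1, and for CCAAT boxes, bound by NF-Y. In bulk RNA, fewer cells in G2 and M phase and less of these mRNAs per cell cannot be told apart.

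Depth was 27380508 and 24305174 counts for the shCon libraries, and 23433826 and 23373700 counts for the shUBXN1 libraries. UBXN1, the targeted gene on chromosome 11 from 62676498 to 62679117, had 67.1 and 77.3 CPM (counts scaled to library size with edgeR's TMM factors) in shCon and 16.8 and 18.5 in shUBXN1. Its level in the knockdown libraries was 24.4% of control (log2 fold change -2.03, SE 0.0963, edgeR quasi-likelihood adjusted p = 9.98e-10). Counts from the mitochondrial genome took 5.28% and 5.59% of shCon and 7.43% and 8.27% of shUBXN1, and their part in the results was not tested. Of 14 hepatocyte and hepatoma markers, 13 were tested. At an edgeR adjusted p under 0.05, 8 (61.5%) were lower and 2 (15.4%) higher in shUBXN1, against 28.2% and 28.0% of all genes tested. The summed level of the 14 was 5463 and 5511 TPM (counts scaled to gene length and library) in shCon and 4667 and 5085 in shUBXN1. The keratins KRT8 (log2 fold change -0.435) and KRT18 (log2 fold change 0.314) made up most of that sum and were abundant in every library. FGB (fibrinogen beta chain) was at 9.71 and 9.96 CPM in shCon and 0.808 and 0.384 in shUBXN1 (log2 fold change -4.02). ALB (albumin) was at 18.0 and 17.2 CPM in shCon and 4.2 and 4.78 in shUBXN1, and APOA2 had a single count in 1 library. Summed markers of fibroblasts were at 24.8 to 25.2 TPM in shCon and 12.6 to 13.7 in shUBXN1, those of endothelium at 15.2 and at 31.9 to 32.1, and those of leukocytes at 99.4 to 103 and 83.5 to 93.0, with CD3E at 0 in all 4 libraries. The fibroblast sum was nearly all LUM (23.9 to 24.1 TPM in shCon, 11.3 to 12.6 in shUBXN1) and the leukocyte sum nearly all CD68, and the fibroblast marker COL1A1 went the other way, from 4 to 10 counts in shCon to 58 and 59 in shUBXN1. In the endothelium sum, KDR was at 5.09 and 5.35 TPM in shCon and 17.9 and 19.5 in shUBXN1. PECAM1 was at 9.97 and 9.61 TPM in shCon and 13.7 and 12.4 in shUBXN1. Whether these shifts bear on the mitotic genes was not tested.

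The mitotic genes were lower in shUBXN1 almost throughout. At a Benjamini-Hochberg adjusted p under 0.05 in edgeR's quasi-likelihood test, 49 of the 54 (90.7%) were lower and 1, WEE1, was higher, and CDC25C, CENPF, ECT2 and SMC2 did not pass. Over all genes tested, 28.2% were called lower and 28.0% were called higher by the same rule. Among the 10218 genes within the range of mean expression that the mitotic genes span, 37.7% were called lower. The median log2 fold change of the list was -0.70, with quartiles of -0.96 and -0.43 and a range from -1.52 (KIF11) to 0.30 (WEE1), whereas the median over all genes tested was 0.016. With the requirement of a 2-fold change and an unadjusted p under 0.05, 13 members were lower, against 6.09% of all genes. No member was 2-fold higher by that rule in edgeR, nor with DESeq2 or limma, against 11.8% of all genes. Both knockdown libraries lay below both control libraries for 50 members, and the same held for 38.6% of all genes. Summed over the list, the level was 4460 and 4447 TPM in shCon and 2967 and 3066 TPM in shUBXN1, or 67.7% of control.

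**Figure D1:**
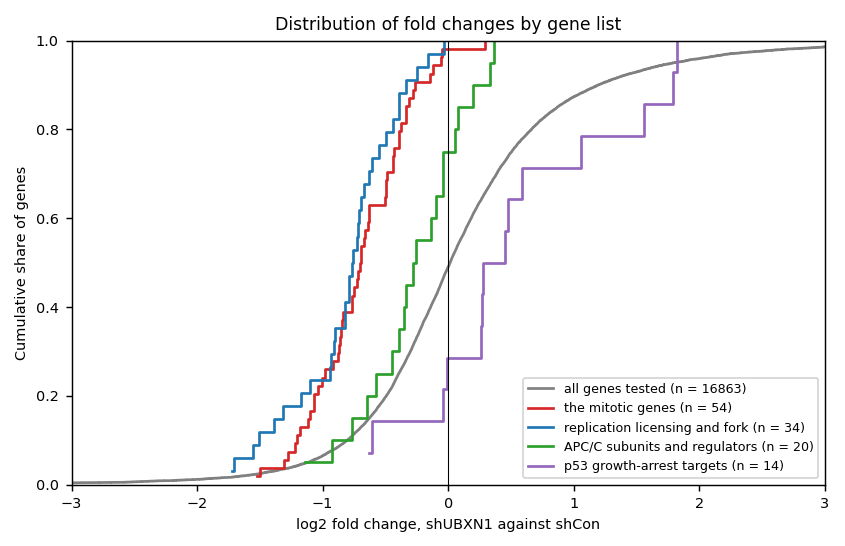
Cumulative share of genes (y axis, from 0 to 1) by log2 fold change of shUBXN1 against shCon (x axis, shown to 3 on either side), for the 54 mitotic genes, the 16863 genes tested and the lists of 34 replication, 20 APC/C and 14 p53 growth arrest genes. The curve of the mitotic genes (median -0.70) runs close to that of the replication genes (-0.76) and to the left of all genes (0.016), with the APC/C list (-0.27) between them and the p53 list (0.37) to the right.

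Levels within the list ranged widely. The median member stood at 52.4 and 50.7 TPM in shCon and at 30.5 and 32.1 TPM in shUBXN1. CKS1B, a small subunit that binds cyclin-dependent kinases, was the highest in every library, with 513 and 546 TPM in shCon and 403 and 410 in shUBXN1. CDC25C was the lowest in shCon, at 9.58 and 8.42 TPM. In shUBXN1 the lowest was the kinetochore motor CENPE, at 5.92 and 5.53 TPM. UBE2C, the ubiquitin-conjugating enzyme of the APC/C, was among the members with high levels, at 264 and 274 TPM in shCon and 131 and 141 in shUBXN1.

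Promoter windows from RefSeq (GRCh38.p14, 250 bases before to 50 bases after the start) were matched for 46 of the 54 genes. BIRC5, TTK, PKMYT1, AURKA, BUB3, TPX2, UBE2C and WEE1 had no entry. The windows were searched on both strands for the CHR letters TTTGAA or TTCGAA and for CCAAT. Other forms of the CHR were not searched, so a window with no match may still hold a CHR. A base could count in matches of both motifs. For members, other lists and genes tested, 1 window per symbol was kept, the first listed, so any other start was left out. Of the genes tested, 11671 had a window, and all windows numbered 35116, not reduced to 1 per symbol. A CHR match was found in 35 of 46 windows (76.1%), against 11.4% of the windows of genes tested and 16.4% of all windows in the table. CCAAT was found in 35 of 46 (76.1%), against 36.1% and 34.6%. Both were present in 28 of 46 (60.9%), against 4.85% of the windows of genes tested. For comparison, 1 of 30 windows (3.33%) of DNA replication genes held a CHR match, and 17 of 30 (56.7%) held CCAAT. The lists nearest in function held the CHR more often, with 11 of 24 windows (45.8%) of other kinetochore genes and 13 of 26 (50%) of other spindle genes, and both motifs stood in 33.3% and 38.5% of these, so the motif was not particular to the 54 genes. CHR matches that began within 50 bases before the start were found in 20 member windows (43.5%) and in 1.65% of the windows of genes tested, a limit chosen after the positions were seen.

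The stretches that follow are the 200 bases before the RefSeq start of 4 genes, 5′ to 3′ on the plus strand, with each whole CHR or CCAAT match, on either strand, in capitals. They are shown because they set the gene that fell most (KIF11) beside a gene with nearly the same fall and no CCAAT (NCAPG). Also shown are CCNB1, which fell with no match to the searched CHR letters, and ECT2, which has both motifs but did not pass. The KIF11 stretch lies at chr10:92592930-92593129, inside the span that GENCODE gives the gene, NCAPG at chr4:17810779-17810978, CCNB1 at chr5:69166950-69167149 and ECT2 at chr3:172750526-172750725.
KIF11: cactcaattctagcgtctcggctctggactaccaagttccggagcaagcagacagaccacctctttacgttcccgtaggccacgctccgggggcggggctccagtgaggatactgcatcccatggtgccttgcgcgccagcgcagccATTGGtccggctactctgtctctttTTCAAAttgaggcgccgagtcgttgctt
NCAPG: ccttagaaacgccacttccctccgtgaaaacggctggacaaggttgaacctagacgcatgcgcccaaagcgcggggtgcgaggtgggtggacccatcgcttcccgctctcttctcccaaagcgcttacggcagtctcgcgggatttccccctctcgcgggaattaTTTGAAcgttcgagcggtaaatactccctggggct
CCNB1: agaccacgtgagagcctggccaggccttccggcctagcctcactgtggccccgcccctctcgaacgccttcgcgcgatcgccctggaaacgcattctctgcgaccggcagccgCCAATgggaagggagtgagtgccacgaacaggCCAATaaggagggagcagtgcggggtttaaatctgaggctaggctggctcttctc
ECT2: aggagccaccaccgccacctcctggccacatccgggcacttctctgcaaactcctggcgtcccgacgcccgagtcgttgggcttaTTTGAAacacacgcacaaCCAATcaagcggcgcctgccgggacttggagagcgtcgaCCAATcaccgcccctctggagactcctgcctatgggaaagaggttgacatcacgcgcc
KIF11 holds its CHR match, read on the opposite strand, at -28 from the start and its CCAAT match at -53. NCAPG has a single CHR match at -35. In CCNB1 the CCAAT matches stand at -87 and -55, and in ECT2 a CHR match at -115 precedes CCAAT at -97 and -58, with another CHR match at 35 and another CCAAT match at -2 that are not shown whole. Over the 35 genes with a CHR match the log2 fold changes ran from -1.52 to -0.05 around a median of -0.66, and for the 11 without it the median was -1.0 and the range ran from -1.28 to -0.12. The genes with a match thus had a median nearer 0 than those without one, and the ranges overlapped. As other CHR forms were not searched, this split does not set genes with a CHR against genes without it. A match describes letters in a window and does not show that a factor binds there.

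Among the 10 entry cyclins and CDK1 regulators, 8 were lower, 1 was higher and 1 did not pass, with a median log2 fold change of -0.53. CCNB1 (chromosome 5, 69167135 to 69178245), the cyclin B that switches CDK1 on, was at 158 and 149 CPM in shCon and 60.8 and 66.0 in shUBXN1. It fell by 1.28 on the log2 scale (SE 0.0772, edgeR adjusted p = 8.72e-09), to 41.3% of control. CDK1 itself (chromosome 10, 60778331 to 60794852) was at 91.7 and 103 CPM in shCon and 39.0 and 46.9 in shUBXN1, or 44.1% of control (log2 fold change -1.18, SE 0.0946, edgeR adjusted p = 1.26e-07). Both libraries of each group were thus close, and the groups stood far apart for the kinase and for its activating cyclin. CCNA2, the cyclin A of S and G2 phase, was at 47.6% of control (log2 fold change -1.07), and 9.24% of its exon bases overlap EXOSC9 on the other strand. CCNB2, the second B-type cyclin, was at 82.4 and 86.6 CPM in shCon and 52.9 and 56.5 in shUBXN1, and fell by 0.63 on the log2 scale. The CDK-binding subunits CKS1B and CKS2 changed by -0.44 and -0.34, CKS2 did not pass without shCon replicate 2 (log2 fold change -0.29, edgeR adjusted p = 0.0733), and CKS1B has 7 named pseudogenes that could share its reads.

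The regulators of the inhibitory CDK1 phosphates did not move as a block. WEE1 (chromosome 11, 9573670 to 9593457), the nuclear inhibitory kinase, was at 58.1 and 56.9 CPM in shCon and 64.2 and 77.2 in shUBXN1. Its log2 fold change was 0.30 (SE 0.0892, edgeR adjusted p = 0.011), or 123% of control, and the knockdown libraries lay apart from each other by more than the first of them lay from the controls. Without shCon replicate 2 its log2 fold change was 0.27 (edgeR adjusted p = 0.11), and without shUBXN1 replicate 2 it was 0.14 (edgeR adjusted p = 0.118), so the call for WEE1 rests on each of these 2 libraries. PKMYT1, the membrane-bound inhibitory kinase, was at 31.1 and 31.7 CPM in shCon and 18.9 and 15.8 in shUBXN1 (log2 fold change -0.86), with 31.9% of its exon bases overlapped on the other strand by PAQR4 (log2 fold change -0.08) and the scarce KREMEN2 (log2 fold change 2.85, from a mean of 0.262 CPM in shCon to 1.9 in shUBXN1). CDC25B, a phosphatase that starts CDK1 activation, was at 261 and 278 CPM in shCon and 201 and 211 in shUBXN1 (log2 fold change -0.39). CDC25C (chromosome 5, 138285269 to 138338355), the related phosphatase, had 9.26 and 8.39 CPM in shCon and 7.84 and 8.41 in shUBXN1 (log2 fold change -0.12, SE 0.152, edgeR adjusted p = 0.525). Its groups overlapped and its mean level in CPM was the lowest of the list, with 194 to 247 counts per library.

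**Figure D2:**
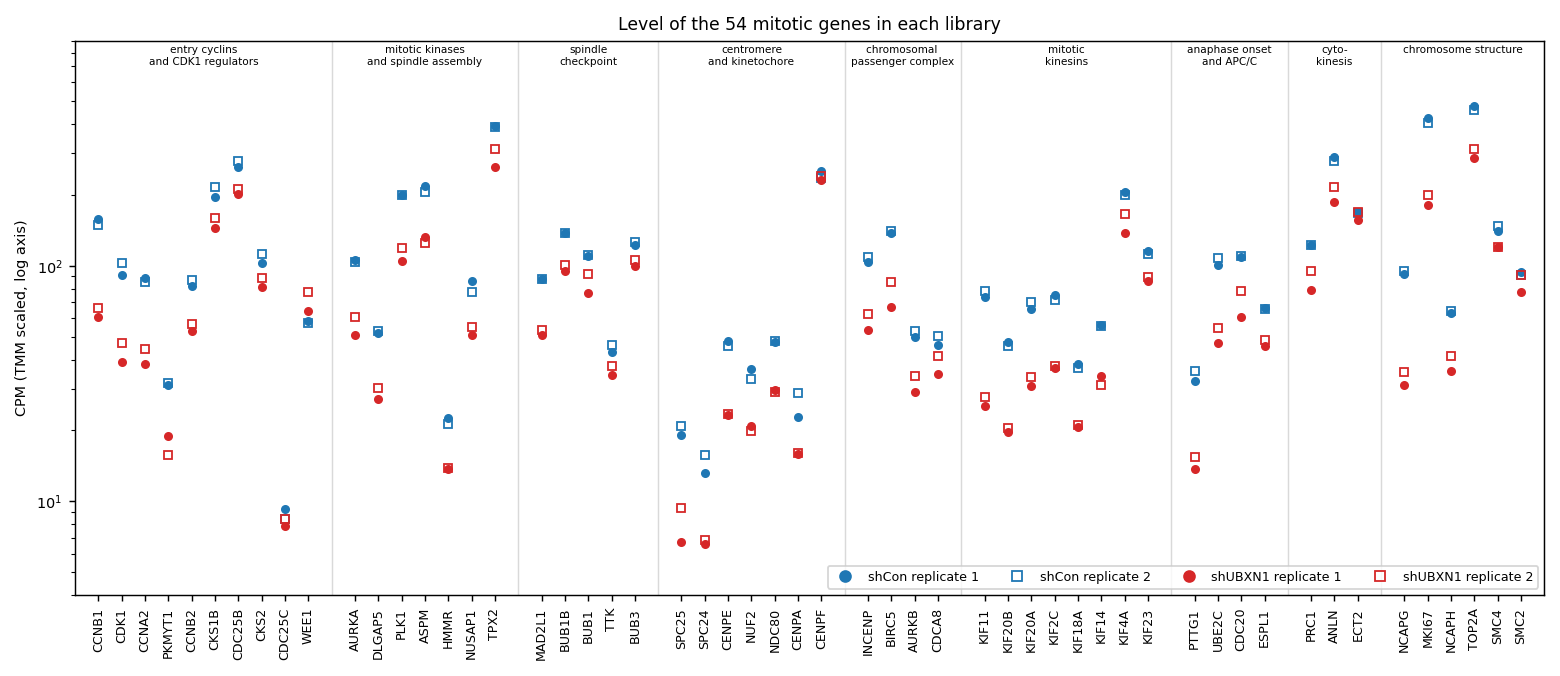
Level of each of the 54 genes (y axis, CPM, log axis) in the 4 libraries, by role group, with blue marks for shCon and red marks for shUBXN1, circles for replicate 1 and squares for replicate 2. Both red marks lie below both blue marks for 50 genes and above them for WEE1.

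All 7 mitotic kinases and spindle assembly factors were lower, with a median log2 fold change of -0.71. AURKA (chromosome 20, 56369389 to 56392337), the centrosomal Aurora kinase, was at 106 and 104 CPM in shCon and 51 and 60.4 in shUBXN1 (log2 fold change -0.91, SE 0.0856, edgeR adjusted p = 6.22e-07). DLGAP5 (chromosome 14, 55148112 to 55191608), also named HURP, which stabilises kinetochore fibres, was at 51.6 and 52.7 CPM in shCon and 27.1 and 30.4 in shUBXN1 (log2 fold change -0.86, SE 0.0862, edgeR adjusted p = 1.19e-06). These 2 genes were therefore at 53.1% and 55.1% of control. PLK1, the Polo-like kinase of centrosome maturation and mitotic entry, went from 199 and 200 CPM in shCon to 105 and 119 in shUBXN1 (log2 fold change -0.84). TPX2, the activator and spindle targeting factor of AURKA, changed by -0.44, from 390 and 388 CPM to 262 and 312. The spindle pole protein ASPM changed by -0.71, the hyaluronan-binding spindle protein HMMR by -0.67, and NUSAP1, which binds spindle microtubules, by -0.63. For NUSAP1, 86.8% of exon bases lie in OIP5-AS1 (log2 fold change 0.60) or ENSG00000285920 (log2 fold change 0.11) on the same strand, so the split of reads between them is uncertain.

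All 5 spindle assembly checkpoint genes were lower, with the median nearest 0 of the role groups, -0.40. MAD2L1 (chromosome 4, 120055623 to 120066858), which encodes MAD2, the checkpoint protein that binds CDC20, was at 87.7 and 87.4 CPM in shCon and 50.8 and 53.5 in shUBXN1. Its log2 fold change was -0.75 (SE 0.0745, edgeR adjusted p = 1.11e-06). BUB1B (chromosome 15, 40161023 to 40221123), which encodes the BUBR1 subunit of the mitotic checkpoint complex, was at 138 and 137 CPM in shCon and 94.7 and 101 in shUBXN1 (log2 fold change -0.49, SE 0.0728, edgeR adjusted p = 5.03e-05). MAD2L1 was at 59.6% and BUB1B at 71.1% of control, and the groups of both were apart. The kinase BUB1, which recruits the others to kinetochores, changed by -0.40, the MPS1 kinase gene TTK by -0.31 and BUB3 by -0.28. Without shCon replicate 2, TTK (log2 fold change -0.28, edgeR adjusted p = 0.093) and BUB3 (log2 fold change -0.28, edgeR adjusted p = 0.0957) no longer passed, though their fold changes moved little.

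Of the 7 centromere and kinetochore genes, 6 were lower, with a median log2 fold change of -0.76. SPC25 (chromosome 2, 168834132 to 168913371) and SPC24 (chromosome 19, 11131520 to 11155807) encode the pair that anchors the NDC80 complex to the inner kinetochore. SPC25 was at 19.1 and 20.8 CPM in shCon and 6.71 and 9.40 in shUBXN1, or 40.4% of control (log2 fold change -1.31, SE 0.150, edgeR adjusted p = 4.41e-06). SPC24 was at 13.2 and 15.7 CPM in shCon and 6.63 and 6.83 in shUBXN1, or 46.6% of control (log2 fold change -1.10, SE 0.145, edgeR adjusted p = 1.77e-05). The other subunits of that complex, the microtubule-binding NDC80 and NUF2, changed by -0.70 and -0.76, so all 4 genes of the complex were lower. CENPA, the histone H3 variant of centromeres, changed by -0.69. CENPE, the kinesin that moves chromosomes to the spindle equator, went from 47.9 and 45.7 CPM to 23.3 and 23.5 (log2 fold change -1.0). CENPF (chromosome 1, 214603185 to 214664574), a large coiled-coil protein of the outer kinetochore, was at 253 and 236 CPM in shCon and 230 and 240 in shUBXN1 (log2 fold change -0.06, SE 0.0751, edgeR adjusted p = 0.533). Its groups overlapped.

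The 4 genes of the chromosomal passenger complex, which corrects faulty attachments and guides cytokinesis, were all lower, with a median log2 fold change of -0.79. INCENP (chromosome 11, 62123998 to 62153169), the scaffold subunit, was at 104 and 109 CPM in shCon and 53.3 and 62.4 in shUBXN1 (log2 fold change -0.88, SE 0.0846, edgeR adjusted p = 8.23e-07). BIRC5 (chromosome 17, 78214186 to 78225636), which encodes survivin, was at 138 and 140 CPM in shCon and 66.9 and 85.3 in shUBXN1 (log2 fold change -0.87, SE 0.0967, edgeR adjusted p = 3.29e-06). Both stood near 55% of control, at 54.5% and 54.7%, and the knockdown libraries of BIRC5 were further apart than its controls. The kinase AURKB changed by -0.70 and CDCA8, which encodes borealin, by -0.34. Without shCon replicate 2 the log2 fold change of CDCA8 was -0.29 and its edgeR adjusted p was 0.081.

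The 8 mitotic kinesins were all lower and had the lowest median of the role groups, -0.91. KIF11 (chromosome 10, 92574105 to 92655395), the Eg5 motor that pushes spindle poles apart, was at 73.9 and 78.2 CPM in shCon and 25.4 and 27.7 in shUBXN1. It fell to 34.9% of control, the largest change of the list (log2 fold change -1.52, SE 0.0828, edgeR adjusted p = 3.26e-09). KIF20B (chromosome 10, 89701590 to 89774939), a motor of late cytokinesis, was at 47.3 and 45.5 CPM in shCon and 19.8 and 20.4 in shUBXN1 (log2 fold change -1.21, SE 0.0875, edgeR adjusted p = 5.02e-08). KIF20A, the midzone motor also known as MKLP2, changed by -1.07, and KIF2C, the microtubule depolymerase of centromeres, by -0.98. The chromosome alignment motor KIF18A changed by -0.85 and KIF14 by -0.77. The smallest changes among kinesins were those of the chromokinesin KIF4A, -0.43, and of KIF23, the kinesin of the centralspindlin complex, -0.38.

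All 4 genes of anaphase onset were lower, with a median log2 fold change of -0.85. PTTG1 (chromosome 5, 160421855 to 160428739), which encodes securin, the inhibitor of separase, was at 32.3 and 35.6 CPM in shCon and 13.7 and 15.5 in shUBXN1, or 42.9% of control (log2 fold change -1.22, SE 0.105, edgeR adjusted p = 2.75e-07). UBE2C (chromosome 20, 45812576 to 45816957), the ubiquitin-conjugating enzyme of the APC/C, was at 101 and 108 CPM in shCon and 47.0 and 54.5 in shUBXN1, or 48.6% of control (log2 fold change -1.04, SE 0.0853, edgeR adjusted p = 1.62e-07). Named pseudogenes of UBE2C number 5 and could share its reads. CDC20, the APC/C activator that the checkpoint blocks, went from 109 and 110 CPM in shCon to 60.7 and 78.0 in shUBXN1 (log2 fold change -0.66). ESPL1, the separase that cuts cohesin, changed by -0.48, beside -1.22 for its inhibitor.

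Of the 3 cytokinesis genes, 2 were lower, with a median log2 fold change of -0.50. PRC1 (chromosome 15, 90966040 to 90995629), which bundles the microtubules of the spindle midzone, was at 123 and 122 CPM in shCon and 79.0 and 94.8 in shUBXN1 (log2 fold change -0.50, SE 0.0862, edgeR adjusted p = 0.000203). Its exons overlap ENSG00000284946 on the same strand over 57.6% of their bases, and that gene had a log2 fold change of -0.56, so their reads cannot be fully told apart. ANLN (chromosome 7, 36389821 to 36453791), which encodes the contractile ring protein anillin, was at 290 and 279 CPM in shCon and 187 and 216 in shUBXN1 (log2 fold change -0.50, SE 0.0821, edgeR adjusted p = 0.000132). ECT2 (chromosome 3, 172750682 to 172821474), the RhoA exchange factor that sets the cleavage plane, was at 169 and 168 CPM in shCon and 157 and 169 in shUBXN1 (log2 fold change -0.05, SE 0.0738, edgeR adjusted p = 0.619). The levels of ECT2 overlapped between the groups, whereas those of PRC1 and ANLN did not.

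Among the 6 genes of chromosome structure, 5 were lower, with a median log2 fold change of -0.68. NCAPG (chromosome 4, 17810979 to 17844865), a subunit of condensin I, was at 92.6 and 95.4 CPM in shCon and 31.2 and 35.5 in shUBXN1, or 35.5% of control (log2 fold change -1.50, SE 0.0833, edgeR adjusted p = 3.98e-09). The other strand of 33.7% of its exon bases belongs to LCORL, which had a log2 fold change of 0.55. MKI67 (chromosome 10, 128096659 to 128126423), the proliferation marker Ki-67 that coats mitotic chromosomes, was at 423 and 402 CPM in shCon and 181 and 199 in shUBXN1, or 46% of control (log2 fold change -1.12, SE 0.0793, edgeR adjusted p = 4.03e-08). TOP2A, the topoisomerase that untangles sister chromatids, went from 475 and 457 CPM to 286 and 312 (log2 fold change -0.64), and the condensin subunit NCAPH changed by -0.72. SMC2 (chromosome 9, 104094260 to 104141419) encodes a core ATPase of both condensins and was at 94.0 and 91.4 CPM in shCon and 77.1 and 90.9 in shUBXN1 (log2 fold change -0.14, SE 0.0845, edgeR adjusted p = 0.167). Its shUBXN1 libraries differed, and without shUBXN1 replicate 2 it passed (log2 fold change -0.28, edgeR adjusted p = 0.00161). SMC4, the partner ATPase, changed by -0.27 and did not pass without shCon replicate 2 (log2 fold change -0.25, edgeR adjusted p = 0.153). Other condensin subunits, named after their values were seen, ran from -0.19 (NCAPG2, condensin II) to -0.76 (NCAPD2, condensin I), with NCAPD3 at -0.58 and NCAPH2 at -0.69.

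**Figure D3:**
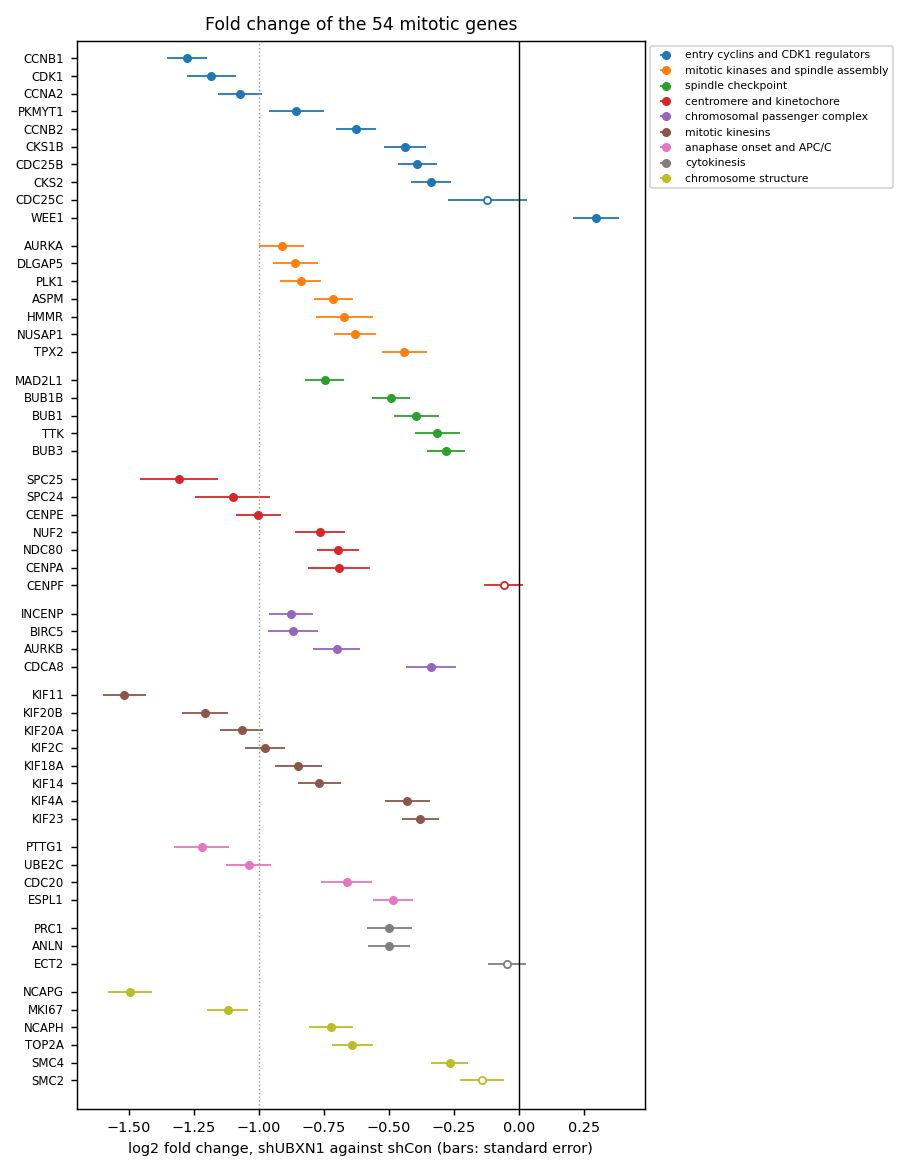
Log2 fold change of shUBXN1 against shCon (x axis) of each of the 54 genes, coloured by role group, with bars of 1 SE, filled points for an edgeR adjusted p under 0.05 and a dotted line at a 2-fold fall. The points lie below 0 for 53 genes, WEE1 alone lies above, the open points are CDC25C, CENPF, ECT2 and SMC2, and the points furthest to the left are KIF11 at -1.52 and NCAPG at -1.50.

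Genes that act together or in opposition were set against each other. Ratios of TPM within each library were taken for 6 pairs chosen after the values were seen. CCNB1 stood at 1.41 and 1.26 times CCNB2 in shCon and at 0.842 and 0.857 times in shUBXN1, above 1 in both control libraries and below 1 in both knockdown libraries. PKMYT1 stood at 0.832 and 0.866 times WEE1 in shCon and at 0.458 and 0.317 times in shUBXN1. NCAPG stood at 1.29 and 1.36 times SMC2 in shCon and at 0.529 and 0.510 times in shUBXN1, again above 1 in the controls and below 1 in the knockdown. CENPE was at 0.228 and 0.234 times CENPF in shCon and at 0.122 and 0.118 times in shUBXN1. KIF11 was at 0.467 and 0.508 times KIF23 in shCon and at 0.215 and 0.226 times in shUBXN1. The smallest shift was that of CKS1B over CKS2, from 1.51 and 1.53 to 1.41 and 1.42. The groups did not overlap for any of the 6 pairs, but with 2 libraries against 2 the two-sided exact permutation p was 0.333 for each, also after adjustment over the 6, the smallest that this design allows.

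Other genes of mitosis were listed by function and counted in the same fit, in which 28.2% of all genes tested were lower and 28.0% higher. Within the mitotic genes' range of mean expression these shares were 37.7% and 28.5%. Of 31 other kinetochore and centromere genes, 22 were lower and 2 higher, with a median log2 fold change of -0.44. SPDL1, the spindly adaptor of dynein at kinetochores, changed by -1.28 and SKA3, of the microtubule-binding SKA complex, by -1.03. Of 28 other spindle and centrosome genes, 21 were lower and 2 higher, with a median of -0.43, among them the motors KIF15 at -1.14 and KIFC1 at -0.85. The 2 higher genes, named after their values were seen, were the kinesin KIF3A (0.722) and the dynein heavy chain DYNC1H1 (0.715). Of 19 other cohesin and condensin genes, 13 were lower and 1 higher, with a median of -0.55. The cohesin protectors SGO1 (shugoshin) and CDCA5 (sororin) changed by -1.60 and -0.84. These lists lay in the same direction as the 54 genes, with smaller medians.

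The degradation machinery and the exit phosphatases had medians nearer 0. Of 20 APC/C subunits and regulators, 11 were lower and 2 higher, with a median log2 fold change of -0.27. The subunit ANAPC15 changed by -1.14 and the inhibitor FBXO5, or EMI1, by -0.92. Of 13 genes of phosphatases of mitotic exit and their regulators, 5 were lower (38.5%) and 3 higher (23.1%), with a median of -0.16. These shares were near the 37.7% and 28.5% of genes within the mitotic genes' range of mean expression. CDC14A, with a mean log2 CPM of 2.23, lay below that range, which starts at 3.10. The 13 also include CDC25A (log2 fold change -0.09, not passing), from the CDC25 family that acts at mitotic entry. CDC14A changed by 0.65 and CDC14B by -0.59. Of 34 replication fork genes, 32 were lower, with a median of -0.76, among them the clamp loader subunit RFC2 at -1.72 and the primase subunit PRIM1 at -1.71. The genes of the replication fork were thus lower as well. Of 14 p53 targets and growth arrest genes, 2 were lower and 8 higher, with a median of 0.37, and GADD45A and BTG2 changed by 1.82 and 1.79. The 2 lower genes were MDM2 (-0.61) and SESN2 (-0.63), and SESN1, TP53I3, CCNG1 and SFN did not pass.

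Of 18 transcription factors and MuvB or E2F subunits known to act on such genes, 12 were lower (66.7%) and 4 higher (22.2%). Over all genes tested, 28.2% were lower and 28.0% higher, so the share higher was not above that of all genes. The median log2 fold change of the 18 was -0.38. MYBL2, which encodes B-MYB, was at 227 and 232 CPM in shCon and 43.2 and 46.3 in shUBXN1 (log2 fold change -2.36, edgeR adjusted p = 4.18e-11). E2F4, the E2F of the repressive DREAM complex, was at 65.1 and 71.9 CPM in shCon and 24.0 and 21.3 in shUBXN1 (log2 fold change -1.60, edgeR adjusted p = 4.84e-09). MYBL2 changed more than any of the 54 mitotic genes. E2F4 (SE 0.0908) lay past KIF11 (log2 fold change -1.52, SE 0.0828) by less than either SE. FOXM1, named after its values were seen, was at 237 and 241 CPM in shCon and 115 and 132 in shUBXN1 (log2 fold change -0.95). The other genes named here were also picked after their values were seen. The 4 higher genes were the MuvB subunits LIN37 (log2 fold change 1.02) and LIN52 (0.52), with RB1 (0.82) and E2F5 (0.43). Of the other MuvB core subunits, LIN9 changed by -0.565 and RBBP4 by -1.49, and LIN54 (0.06) did not pass. The core thus did not move as a block.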

How the data were processed

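RNA of MHCC97H cells was sequenced in 4 libraries (2 shCon, 2 shUBXN1), grouped by their labels. The authors deposited expected counts per gene, not normalized, with a gene length in bases. The study's methods name Hisat2 and GRCh38, whereas the submitters' processing notes list GRCh37, HISAT2 2.0.4 and StringTie 1.3.0. The counting tool, annotation release and use of strand are not given in the sources used here. The table has no coordinates: positions are those of GENCODE 44 (GRCh38), in which 61369 of 61541 gene IDs (99.7%) were found.

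Counts were rounded, filtered with filterByExpr, scaled with TMM and tested with edgeR 4.0.16 (glmQLFit, glmQLFTest) in R 4.3.3, with Benjamini-Hochberg adjustment over 16863 genes. SE was the log2 fold change over the square root of F. The biological coefficient of variation was 0.0711, on 2 residual degrees of freedom. Replicates differed by more than sampling noise (chi-square per degree of freedom 3.65 and 7.77). In a test on simulated counts of 16863 genes for this comparison, 150 of 200 genes changed 2-fold (75%) were recovered, with 9 false calls. That simulation gave genes of like expression the same spread. In the data 4751 genes were called lower and 4727 higher, so these rates need not hold for them. TPM was computed from counts and lengths.

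The members, gene lists and tests were chosen with earlier results of these data known. The 2 largest changes per role group, and every member higher or not passing, are given in full, and the 2 largest called changes with a mean log2 CPM above 2 are named from other lists. Alternatives were DESeq2 1.42.0, total count scaling, limma 3.58.1 (voom, log2(CPM + 1), log2(TPM + 1)), other filters (none, or at least 10 counts in every library), a replicate block, leaving out each library and, added after seeing the data, removal of a GC trend.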

Additional observations from a re-analysis of the deposited data

How the results depend on the processing

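The count of 49 members lower in shUBXN1 was the same under DESeq2, each limma alternative, total count scaling, both other filters, the replicate block and removal of the GC trend (chosen after seeing the data) with and without the block. It was 44 to 50 when 1 library was left out. The 1 higher member ranged from 0 to 1 when 1 library was left out, and was lost without shCon replicate 2 and without shUBXN1 replicate 2. Without shCon replicate 2, BUB3, CDCA8, CKS2, SMC4 and TTK also no longer passed. Members lower by 2-fold numbered 13, 9 to 14 under the other alternatives and 11 to 17 without 1 library. The median of -0.70 moved between -0.70 and -0.61, and between -0.72 and -0.67 without 1 library. The sign turned for CENPF, to 0.026 with total count scaling and 0.001 with limma on TPM, and for ECT2, to 0.038 with total count scaling, 0.012 with limma on TPM, 0.015 with the GC trend removed, 0.014 with the block and the GC trend removed and 0.005 without shUBXN1 replicate 1, against -0.117 without shUBXN1 replicate 2. Neither passed the test and the cause was not tested. The libraries share replicate numbers, but nothing pairs them: replicate differences correlated by 0.0393 between the groups. With the replicate block, 49 members were lower, 1 was higher, 13 were 2-fold lower and the median was -0.70. The widest SE (0.152) was that of CDC25C, which had the lowest mean CPM, and 2 libraries per group limit every SE.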
